A study of Mus musculus with 12 samples.

Results

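The 10 genes described here are targets of the tumour suppressor p53 or relatives of such targets: Gadd45a, Gadd45b, Gadd45g, Btg1, Btg2, Cdkn1a, Mdm2, Pmaip1, Ccng1 and Sesn1. Most are known to slow cell division or promote cell death, whereas Mdm2 restrains p53 itself. They were chosen by gene symbol, with earlier results of these data known. Every probe set that names one of them was used. This gave 23 probe sets of the 38130 that name a single gene, and 10 genes of 20753. Their RNA was read on 12 Affymetrix Mouse430_2 arrays. The cells were mouse embryonic fibroblasts made immortal with the SV40 large T antigen, from embryos of 12.5-14.5 days. For both genotypes the strain label names the allele Ppp1r15A tm1.1.Ajf on B6.129P2, together with C57Bl/6. They were wildtype (WT) or knockout (KO) for GADD34, the protein made by Ppp1r15a. Cells of each genotype were left untreated or given 0.1 mM sodium arsenite, an oxidative poison, for 2 h. Each of the 4 groups has 3 arrays, 1 from each of 3 replicate experiments that held all 4 conditions. The labels do not say how many embryos or separately immortalised cultures stood behind each genotype, so the effect of the knockout and other differences between the cell populations cannot be told apart, and p-values measure the spread between these arrays.

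As background, p53 is a transcription factor that rises when DNA is damaged and switches on genes that halt the cell cycle, repair DNA or trigger apoptosis. Several of these genes are also switched on without p53 by other stress pathways, among them MAP kinases, NF-kB and ATF4. The large T antigen is known to bind p53 and hold it away from its targets. GADD34 guides protein phosphatase 1 to the initiation factor eIF2alpha, whose phosphorylation under arsenite slows translation, and so helps translation recover. These arrays read RNA and do not show how active p53 was.

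Signals are log2 values after RMA, which corrects background, equalises the distributions of the arrays and summarises the probes of each probe set. Array medians lay between 5.92 and 5.96, and arrays of the same group correlated at 0.985 to 0.996 across genes. In WT cells Ppp1r15a, the targeted gene, read 8.45, 8.57 and 8.88 untreated and 12.24, 12.25 and 11.60 after arsenite. It read 6.20 to 6.42 on the untreated KO arrays and 5.88 to 6.71 on the arsenite KO arrays, below every WT array. The groups used here are those of the full deposited table. In a shorter deposited table the sample labels of 10 of 12 columns stand over the values of another array, and under those labels Ppp1r15a does not separate the genotypes. All 9 fibroblast markers read were above the dim level of 5.35 (the 40th percentile of all values) in at least 1 group. Below it in all groups lay 2 of 3 blood markers (Ptprc, Adgre1), 3 of 4 endothelial (Pecam1, Cdh5, Tek), 2 of 5 epithelial (Cdh1, Krt18), 1 of 4 muscle (Myog) and 1 of 4 neural markers (Sox2). Others of these lists read above it, among them the epithelial Epcam (group means of 7.44 to 7.55) and Krt8 (6.07 to 6.28), the endothelial Kdr (6.62 to 8.07), the muscle gene Des (6.89 to 7.08) and the neural Map2 (7.32 to 9.06) and Tubb3 (7.72 to 8.95), and the blood marker Cd68 (5.22 to 6.17) and the epithelial Cldn4 (5.21 to 6.31) did so in 3 of 4 groups. The mean level of each list ranged over the groups from 4.64 to 5.01 for blood, 4.94 to 5.41 for endothelium, 5.48 to 5.72 for epithelium, 5.79 to 6.02 for muscle, 6.38 to 6.45 for neural and 11.17 to 11.61 for fibroblast markers, and the part of other cell types in the results was not tested. Thy1, a fibroblast surface marker, averaged 5.14 and 5.23 in untreated and arsenite KO cells against 7.32 and 6.89 in WT cells, and the collagen gene Col1a2 averaged 14.66 and 14.64 against 10.33 and 10.31. In a bulk sample a change in the share of expressing cells and a change in RNA per cell cannot be told apart.

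Promoter sequences were listed for 9 of the 10 genes (RefSeq, build GRCm38.p6), and Pmaip1 had no entry. The 250 bases before the annotated start are printed for 5 of them, since these genes range from the largest rise under arsenite (Btg2) to the smallest that passed a test (Btg1). Capitals mark a full cAMP response element (TGACGTCA) in Btg2, its half-site (TGACG) in Btg1, the composite C/EBP-ATF site (TGATGNAA) in Gadd45g, the p53 half-site in Cdkn1a, and the TATA box (TATAAA). The motifs were searched on both strands and were chosen after the sequences had been seen. The full element contains the half-site on each strand. The windows are Btg2 (chr1:134079156-134079405, minus strand), Btg1 (chr10:96616751-96617000, plus strand), Gadd45g (chr13:51846425-51846674, plus strand), Gadd45b (chr10:80929841-80930090, plus strand) and the upstream start of Cdkn1a (chr17:29090729-29090978, plus strand), all written 5′ to 3′ along the gene.
Btg2: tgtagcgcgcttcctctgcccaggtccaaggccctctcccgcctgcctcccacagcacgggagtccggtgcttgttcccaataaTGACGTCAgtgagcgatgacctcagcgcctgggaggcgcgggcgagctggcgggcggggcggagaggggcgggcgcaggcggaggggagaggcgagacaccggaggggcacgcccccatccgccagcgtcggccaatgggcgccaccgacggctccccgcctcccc
Btg1: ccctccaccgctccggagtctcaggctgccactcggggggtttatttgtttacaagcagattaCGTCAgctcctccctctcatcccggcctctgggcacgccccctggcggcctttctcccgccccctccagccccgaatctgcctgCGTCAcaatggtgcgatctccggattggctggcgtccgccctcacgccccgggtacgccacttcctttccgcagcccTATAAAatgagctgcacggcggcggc
Gadd45g: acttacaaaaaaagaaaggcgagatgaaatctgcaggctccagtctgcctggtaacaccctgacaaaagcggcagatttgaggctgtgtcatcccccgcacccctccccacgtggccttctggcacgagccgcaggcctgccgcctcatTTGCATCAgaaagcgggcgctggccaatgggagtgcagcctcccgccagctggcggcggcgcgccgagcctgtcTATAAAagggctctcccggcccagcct
Gadd45b: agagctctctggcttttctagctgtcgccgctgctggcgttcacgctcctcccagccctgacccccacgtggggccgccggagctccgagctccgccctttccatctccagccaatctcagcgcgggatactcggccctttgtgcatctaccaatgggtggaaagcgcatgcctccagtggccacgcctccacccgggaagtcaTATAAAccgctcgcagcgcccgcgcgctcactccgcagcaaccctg
Cdkn1a: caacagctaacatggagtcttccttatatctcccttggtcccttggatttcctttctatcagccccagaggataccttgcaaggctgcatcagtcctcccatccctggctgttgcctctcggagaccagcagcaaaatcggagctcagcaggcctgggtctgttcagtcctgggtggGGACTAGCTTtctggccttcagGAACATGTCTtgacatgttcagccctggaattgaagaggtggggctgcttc
The full cAMP response element was found in Btg2 alone among the 9 genes, 166 to 159 bases before its start, and in 1.55% of 32851 promoters. Its half-site was found in Btg1, in Btg2 and at the second start of Sesn1, and in 17.8% of promoters. In Gadd45g the C/EBP-ATF site lay on the minus strand of the gene, 101 to 94 bases before the start (3.45% of promoters), and an antioxidant response element (TGACNNNGC, 10.2% of promoters) lay 168 to 160 bases before it. A TATA box was found in Gadd45b, Gadd45g and Btg1, and in 12.4% of promoters. The p53 half-site was found in Gadd45a, Cdkn1a, Mdm2, Ccng1 and at the second start of Sesn1, and in 7.13% of promoters. In Cdkn1a 2 matches begin 73 and 51 bases before its upstream start, and its downstream window had none. The 9 genes had 11 windows, while each share is over single windows. The AP-1 site (TGANTCA, 6.75% of promoters), the heat shock element (GAANNTTC, 6.69%) and the CArG box (1.47%) matched none of the 9 genes in these windows. The CCAAT box (CCAAT, left in lower case) was found in 8 of them and in 33.8% of promoters.

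Arsenite was followed within 2 h by higher RNA of most of the 10 genes in both genotypes. In WT cells 5 of 10 rose and none fell (limma, adjusted p under 0.05 by Benjamini-Hochberg over 20753 genes), against 1.65% of all genes that rose and 0.477% that fell. These were Btg2, Gadd45a, Gadd45g, Pmaip1 and Gadd45b. In KO cells 7 of 10 rose and none fell, against 3.74% and 3.80% of all genes, and the 7 were the same 5 with Btg1 and Cdkn1a. The median log2 difference of the 10 genes was 1.13 in WT and 1.48 in KO cells, and that of all genes was -0.01 and 0.03. In both genotypes 8 of the 10 genes read higher on every arsenite array than on every untreated array, which held for 9.84% of all genes in WT and 14.0% in KO cells. None read lower on every arsenite array, against 10.6% and 9.68% of all genes. The other members, Ccng1 and Sesn1, had log2 differences below 0 in every experiment. With the replicate experiment as a block 7 rose in WT cells (3.09% of all genes rose and 1.79% fell in that fit), and in KO cells 8 rose and 1 fell (6.63% and 8.07%). Leaving out single arrays moved the WT count between 4 and 6 and the KO count between 5 and 7.

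**Figure D1:**
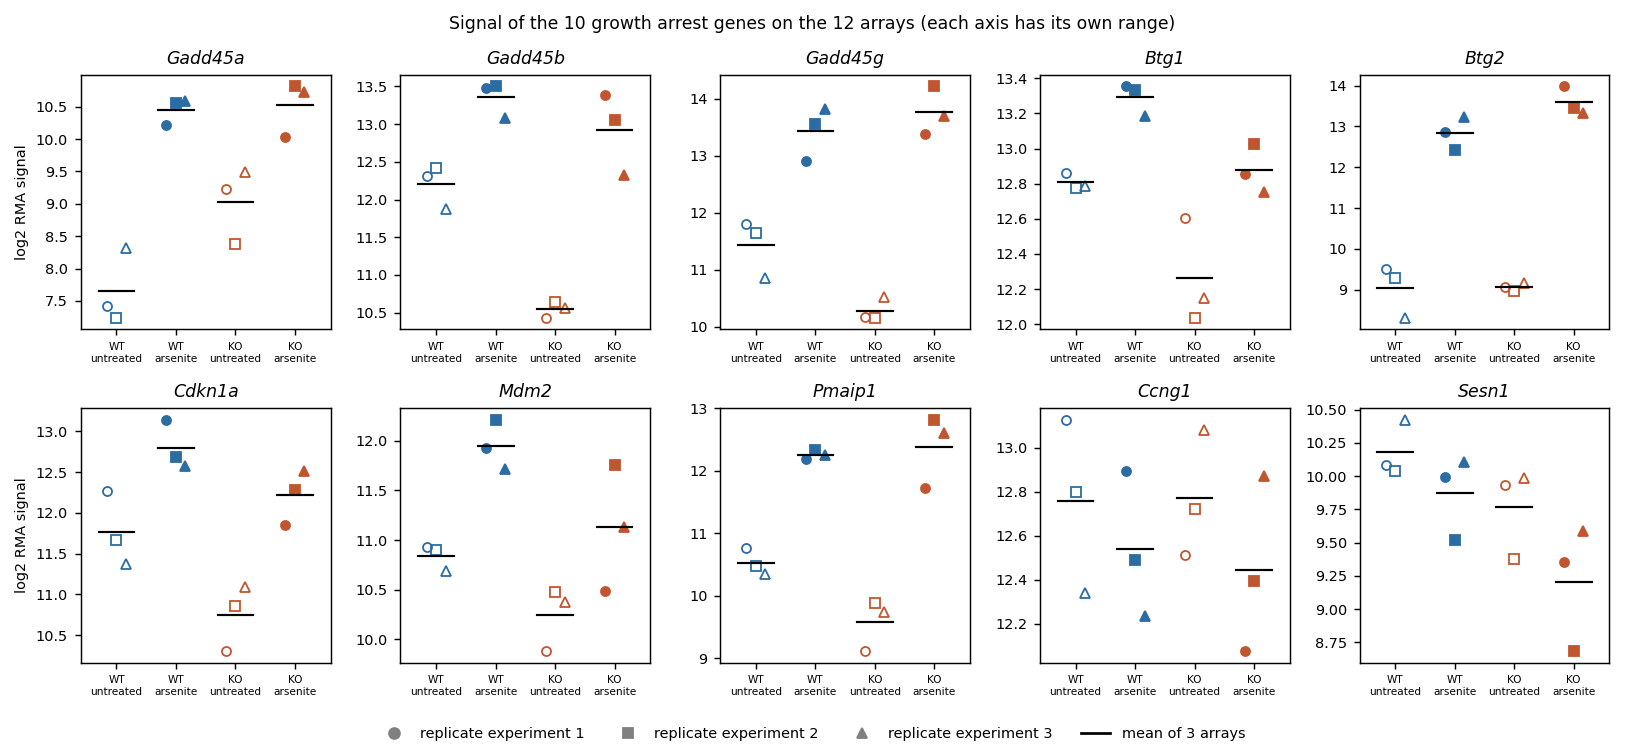
Log2 RMA signal of the 10 genes on the 12 arrays, 1 panel per gene with its own vertical range. Open symbols are untreated and filled symbols arsenite arrays, blue is WT and orange KO, the shape gives the replicate experiment and the black bar is the mean of 3 arrays. In 8 panels the arsenite arrays of a genotype lie above its untreated arrays, while in the panels of Ccng1 and Sesn1 they overlap.

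The GADD45 proteins bind and activate the kinase MEKK4, which feeds p38 and JNK, and they also hinder CDK1 and take part in DNA repair. Gadd45a, the member best known as a p53 target, read 7.42, 7.24 and 8.32 on the untreated WT arrays of experiments 1, 2 and 3, and 10.21, 10.55 and 10.60 after arsenite. In KO cells it read 9.23, 8.38 and 9.49 untreated and 10.03, 10.82 and 10.73 after arsenite. The 2 arsenite groups overlapped, whereas the lowest untreated KO array stood just above the highest untreated WT array. Gadd45a rose by 2.80 ± 0.33 (log2, SE, n = 3 against 3) in WT cells, 6.95-fold (limma adjusted p = 0.000921), and by 1.50 ± 0.33 in KO cells, 2.82-fold (limma adjusted p = 0.0182). The rise in KO cells was 0.80 in experiment 1, 2.44 in experiment 2 and 1.24 in experiment 3, and its adjusted p reached 0.057 without untreated KO replicate 2, 0.0662 without arsenite KO replicate 2 and 0.05 without arsenite KO replicate 3.

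Gadd45b, which is also a target of NF-kB and of TGF-beta signalling, read 12.31, 12.41 and 11.87 in untreated WT cells and 13.48, 13.50 and 13.09 after arsenite. In KO cells it read 10.43, 10.64 and 10.56 untreated and 13.38, 13.06 and 12.33 after arsenite. The untreated KO arrays were the lowest of all and lay close together, and the arsenite KO arrays overlapped both WT groups. Gadd45b rose by 1.16 ± 0.24 in WT cells, 2.23-fold (limma adjusted p = 0.0263), and by 2.38 ± 0.24 in KO cells, 5.21-fold (limma adjusted p = 0.00015). In WT cells the difference was nearly the same in each experiment (1.17, 1.09 and 1.21), yet the adjusted p passed 0.05 when any untreated WT array or arsenite WT replicate 1 or 2 was left out, at 0.0544 to 0.125. With the replicate experiment as a block it was 0.00267.

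Gadd45g read 11.80, 11.64 and 10.86 in untreated WT cells and 12.91, 13.55 and 13.82 after arsenite. In KO cells it read 10.17, 10.16 and 10.53 untreated and 13.38, 14.22 and 13.70 after arsenite. Both arsenite groups stood above both untreated groups and overlapped each other. Gadd45g rose by 2.00 ± 0.29 in WT cells, 3.99-fold (limma adjusted p = 0.00345), and by 3.48 ± 0.29 in KO cells, 11.2-fold (limma adjusted p = 3.77e-05). The rise spread from 1.11 to 2.96 between WT experiments and from 3.17 to 4.06 between KO experiments.

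BTG1 and BTG2 are antiproliferative proteins that recruit the CCR4-NOT complex to shorten the poly(A) tails of messenger RNAs, and Btg2 is both a p53 target and an immediate early gene. Btg2 read 9.51, 9.28 and 8.31 in untreated WT cells and 12.86, 12.42 and 13.24 after arsenite. In KO cells it read 9.08, 8.96 and 9.17 untreated and 13.99, 13.46 and 13.34 after arsenite. The untreated groups overlapped, and every arsenite KO array lay above every arsenite WT array. Btg2 had the largest rise of the 10 genes in both genotypes, 3.81 ± 0.30 or 14.0-fold in WT cells (limma adjusted p = 4.27e-05) and 4.53 ± 0.30 or 23.0-fold in KO cells (limma adjusted p = 5.76e-06). Btg1 moved much less: untreated WT arrays spanned 12.77 to 12.86 and arsenite WT arrays 13.19 to 13.36, and in KO cells the spans were 12.04 to 12.60 and 12.75 to 13.03. The groups of each genotype did not overlap. Btg1 rose by 0.62 ± 0.14 in KO cells, 1.53-fold (limma adjusted p = 0.0172). In WT cells its difference of 0.48 ± 0.14 did not pass (limma adjusted p = 0.119), and passed with the replicate block (adjusted p = 0.0491) and without untreated KO replicate 1 (0.028). The KO call was lost, at adjusted p = 0.0514 to 0.0685, without untreated KO replicate 2 or 3 or arsenite KO replicate 1 or 2.

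Cdkn1a, which encodes the CDK inhibitor p21 and is the classic p53 target of growth arrest, read 12.26, 11.67 and 11.37 in untreated WT cells and 13.14, 12.68 and 12.58 after arsenite. In KO cells it read 10.30, 10.85 and 11.09 untreated and 11.85, 12.28 and 12.52 after arsenite. Arsenite arrays stood above untreated arrays in each genotype, and the arsenite KO arrays overlapped the untreated WT arrays. Cdkn1a rose by 1.47 ± 0.27 in KO cells, 2.76-fold (limma adjusted p = 0.00682). In WT cells the difference of 1.04 ± 0.27 did not pass (limma adjusted p = 0.0881), nor did it with the replicate block (0.0677), and it passed without untreated WT replicate 1 (1.28, adjusted p = 0.0477). Within experiments it ranged from 0.88 to 1.21 in WT and from 1.43 to 1.55 in KO cells. Levels differed between experiments in opposite order, with WT cells highest in experiment 1 and KO cells highest in experiment 3. A block for the experiment within each genotype, added after the data had been seen, gave an adjusted p = 0.000299 by limma for the WT difference. In that fit 8 of the 10 genes rose in WT cells (4.13% of all genes rose and 3.94% fell), and 8 rose and 2 fell in KO cells (8.70% and 12.0%).

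Pmaip1 encodes NOXA, a BH3-only protein that neutralises MCL1 and promotes apoptosis, and it is a target of both p53 and ATF4. It read 10.76, 10.47 and 10.35 in untreated WT cells and 12.18, 12.33 and 12.24 after arsenite. In KO cells it read 9.11, 9.88 and 9.74 untreated and 11.71, 12.82 and 12.60 after arsenite. Untreated KO arrays were the lowest, untreated WT arrays came next without overlap, and the arsenite groups overlapped above them. Pmaip1 rose by 1.72 ± 0.26 in WT cells, 3.30-fold (limma adjusted p = 0.00455), and by 2.80 ± 0.26 in KO cells, 6.96-fold (limma adjusted p = 9.94e-05). Mdm2 encodes the ubiquitin ligase that marks p53 for destruction and is itself a p53 target. Its WT arrays read 10.93, 10.90 and 10.69 untreated and 11.92, 12.21 and 11.72 after arsenite, and its KO arrays 9.88, 10.48 and 10.37 untreated and 10.49, 11.76 and 11.14 after arsenite. Arsenite arrays of each genotype lay above its untreated arrays, in KO cells by a narrow gap. The differences of 1.11 ± 0.27 in WT and 0.89 ± 0.27 in KO cells did not pass (limma adjusted p = 0.0662 and 0.0757). Both passed in the fit with the experiment as a block (adjusted p = 0.0116 and 0.0164), and without arsenite KO replicate 1 both passed as well (0.0155 and 0.0138). The WT difference also passed without arsenite KO replicate 2 (0.0142).

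Ccng1 encodes cyclin G1, a p53 target that recruits phosphatase 2A to MDM2, and Sesn1 encodes sestrin 1, which restrains mTORC1 signalling. Ccng1 spanned 12.34 to 13.13 in untreated WT, 12.23 to 12.89 in arsenite WT, 12.51 to 13.08 in untreated KO and 12.07 to 12.87 in arsenite KO cells. All 4 groups overlapped. Its differences were -0.22 ± 0.25 in WT (limma adjusted p = 0.832) and -0.33 ± 0.25 in KO cells (limma adjusted p = 0.509). Within experiments they were -0.11 to -0.31 in WT and -0.21 to -0.44 in KO cells, and with the block within each genotype the KO difference passed (adjusted p = 0.02). Sesn1 spanned 10.04 to 10.42 in untreated WT, 9.52 to 10.11 in arsenite WT, 9.38 to 9.99 in untreated KO and 8.68 to 9.58 in arsenite KO cells, and in each genotype the treated and untreated spans overlapped. Its differences were -0.31 ± 0.25 in WT (limma adjusted p = 0.716) and -0.56 ± 0.25 in KO cells (limma adjusted p = 0.219). The KO difference passed with the replicate block (adjusted p = 0.00928).

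**Figure D2:**
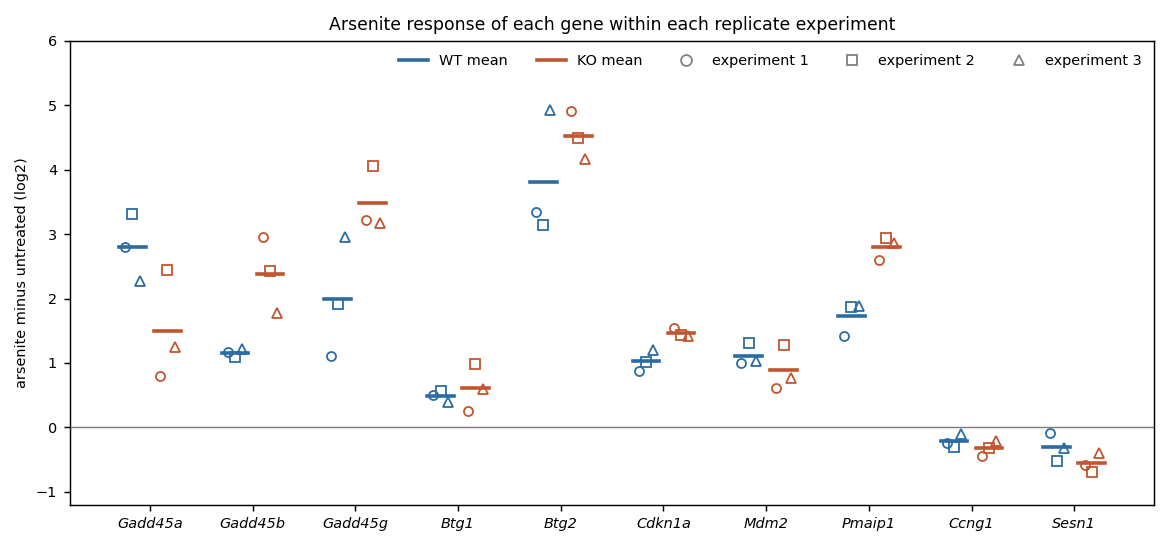
Arsenite minus untreated log2 signal of each gene within each of 3 replicate experiments, in WT (blue) and KO (orange) cells. The bar is the mean of 3 experiments and the symbol shape gives the experiment. All points of 8 genes lie above 0, and all points of Ccng1 and Sesn1 lie below it.

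Probe sets of the same gene read different stretches of its transcripts, and most moved the same way. Of the 23 probe sets, 8 rose in WT and 11 in KO cells and none fell, against 1.68% and 3.58% of 38130 probe sets that rose and 0.603% and 4.56% that fell. The other Btg2 probe set (1448272_at) rose by 3.39 ± 0.31 in WT and 4.73 ± 0.31 in KO cells (limma adjusted p = 0.000164 and 6.21e-06). The other Cdkn1a probe set (1421679_a_at) rose by 1.17 ± 0.27 in WT cells and passed there (limma adjusted p = 0.0472), unlike the brighter one. Gadd45b 1449773_s_at rose by 1.18 ± 0.25 and 2.68 ± 0.25 (limma adjusted p = 0.0289 and 9.19e-05), while its dimmer 1420197_at, with group means of 6.81 to 7.65, differed by 0.39 and 0.65 and did not pass, although the KO difference did with the replicate block (adjusted p = 0.00492). Btg1 1442018_at, also dim at 6.32 to 7.34, differed by 0.06 ± 0.38 and -0.39 ± 0.38, so its sign in KO cells was opposite to that of the other Btg1 probe sets. Mdm2 1457929_at and Sesn1 1444376_at lay below the dim level in all groups. With the replicate block 11 probe sets rose in WT cells and none fell, against 3.24% and 2.03% of all probe sets in that fit. In KO cells 14 rose and 3, all of Sesn1, fell, against 6.33% and 9.39%.

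**Figure D3:**
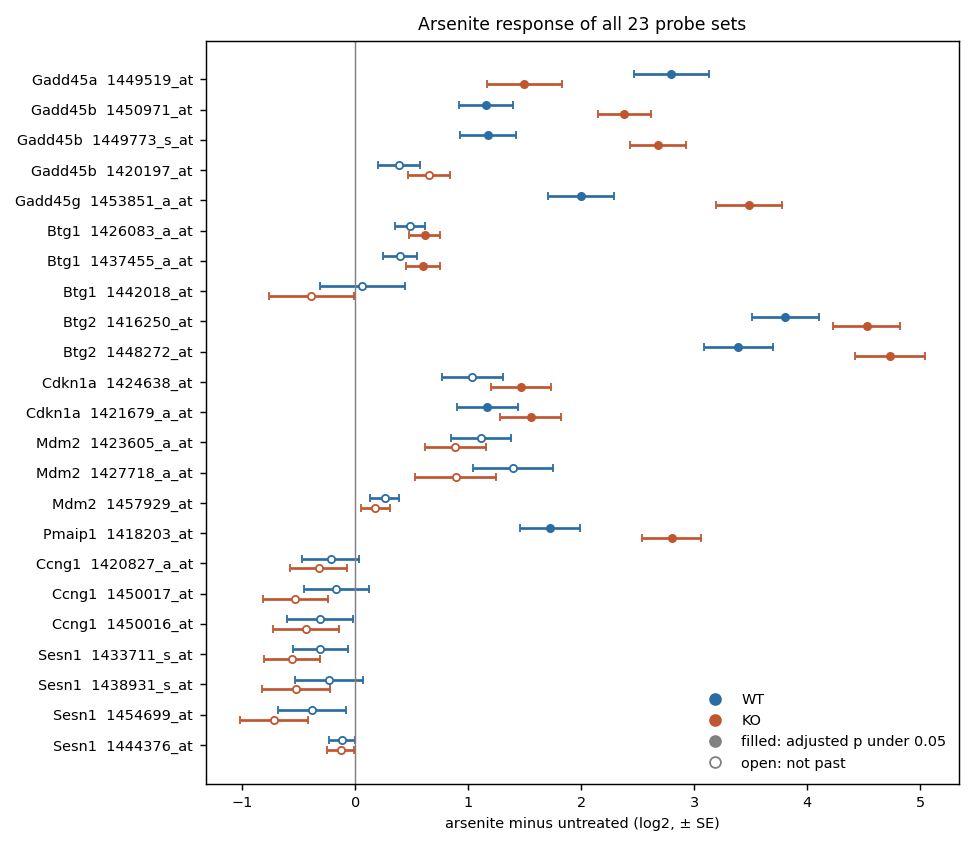
Arsenite minus untreated log2 difference with its standard error for each of the 23 probe sets, in WT (blue) and KO (orange) cells, with filled points past an adjusted p of 0.05. Within each genotype both Btg2 probe sets lie farthest to the right, at 3.39 and 3.81 in WT and 4.53 and 4.73 in KO cells. All probe sets of Ccng1 and Sesn1 lie left of 0.

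Without arsenite, most of the genes read lower in KO than in WT cells. Of the 10 genes, 5 were lower and 1 was higher in untreated KO cells, against 10.3% and 9.83% of all genes. The median KO minus WT difference of the 10 genes was -0.57, and that of all genes was -0.01. Gadd45b was 3.16-fold lower (-1.66 ± 0.24, limma adjusted p = 0.00046), Gadd45g 2.22-fold lower (-1.15 ± 0.29, limma adjusted p = 0.0158) and Cdkn1a 2.02-fold lower (-1.02 ± 0.27, limma adjusted p = 0.0192). Pmaip1 was 1.93-fold lower (-0.95 ± 0.26, limma adjusted p = 0.0251) and Btg1 1.46-fold lower (-0.54 ± 0.14, limma adjusted p = 0.0144). Gadd45a was the exception, 2.59-fold higher in KO cells (1.37 ± 0.33, limma adjusted p = 0.0123). At their brightest probe sets these 6 genes did not overlap between the untreated groups, nor did Mdm2 (-0.60 ± 0.27, limma adjusted p = 0.159) and Sesn1 (-0.42 ± 0.25, limma adjusted p = 0.297). The other probe sets of Btg1, Mdm2 and Sesn1 did overlap, among them Btg1 1437455_a_at (-0.47 ± 0.15, limma adjusted p = 0.0531). Those of Gadd45b and Cdkn1a did not. The Sesn1 difference passed with the block (adjusted p = 0.0197), in which 1 gene was higher and 6 were lower, against 14.3% and 14.9% of all genes. In all, 7 genes were lower and 1 higher without overlap, as were 18.0% and 16.5% of all genes. Btg2 (0.03 ± 0.30) and Ccng1 (0.01 ± 0.25) had 95% intervals of -0.61 to 0.68 and -0.54 to 0.57.

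The untreated comparison leaned on single arrays more than the arsenite comparisons did. The count of 6 genes fell to 1, Gadd45b, without untreated WT replicate 1, to 3 without untreated WT replicate 2 or untreated KO replicate 1, and to 4 without untreated KO replicate 3. Gadd45b stayed past the threshold without any one array, at adjusted p = 6.71e-05 to 0.00319. Within experiments the Cdkn1a difference was -1.96, -0.81 and -0.28, that of Gadd45g -1.64, -1.48 and -0.34, and that of Pmaip1 -1.65, -0.59 and -0.61. Each kept its sign in all 3 experiments, with the widest gap in experiment 1. Of 9 fibroblast markers Col1a2 and Thy1 differed most between the genotypes, as given above, and the part of such population differences in these values was not tested. Of the 23 probe sets 7 were lower and 1 higher in untreated KO cells (9.10% and 8.83% of all probe sets), or 12 and 1 with the replicate block (13.4% and 13.1%).

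Under arsenite none of the 10 genes passed between KO and WT cells, against 10.3% of all genes higher and 10.8% lower in KO cells. At an unadjusted p under 0.05, 1 was higher and 3 were lower, and 31.4% of all genes lay under that level. Gadd45a, Gadd45g and Pmaip1, which differed untreated, had KO minus WT differences of 0.07 ± 0.33, 0.34 ± 0.29 and 0.13 ± 0.26 under arsenite, with 95% intervals of -0.66 to 0.80, -0.31 to 0.98 and -0.45 to 0.71. Gadd45b and Cdkn1a were at -0.43 ± 0.24 and -0.59 ± 0.27 (limma adjusted p = 0.249 and 0.162). Mdm2 (-0.82 ± 0.27), Btg1 (-0.41 ± 0.14) and Sesn1 (-0.67 ± 0.25) lay near the threshold (limma adjusted p = 0.0504, 0.0515 and 0.0804). Blocking on the experiment, these 3 genes were lower in KO cells (adjusted p = 0.0111, 0.0252 and 0.0013), against 15.0% of all genes lower and 15.1% higher in that fit. On the arrays themselves Btg2 was higher in KO cells and Btg1 and Cdkn1a were lower without overlap, as were 18.6% and 15.7% of all genes. Btg2 differed the other way by 0.75 ± 0.30 (limma adjusted p = 0.0994), and its other probe set by 1.35 ± 0.31, which passed (limma adjusted p = 0.00915). It was the only one of the 23 probe sets to pass (8.72% of all probe sets were higher and 10.6% lower), and with the block 1 was higher and 7 were lower (13.1% and 14.9% of all probe sets). Leaving out untreated KO replicate 1 or arsenite KO replicate 2 gave 2 genes past the threshold (Btg1 and Mdm2), and leaving out untreated WT replicate 3 (Btg2), untreated KO replicate 2 (Btg1) or arsenite KO replicate 3 (Sesn1) gave 1.

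**Figure D4:**
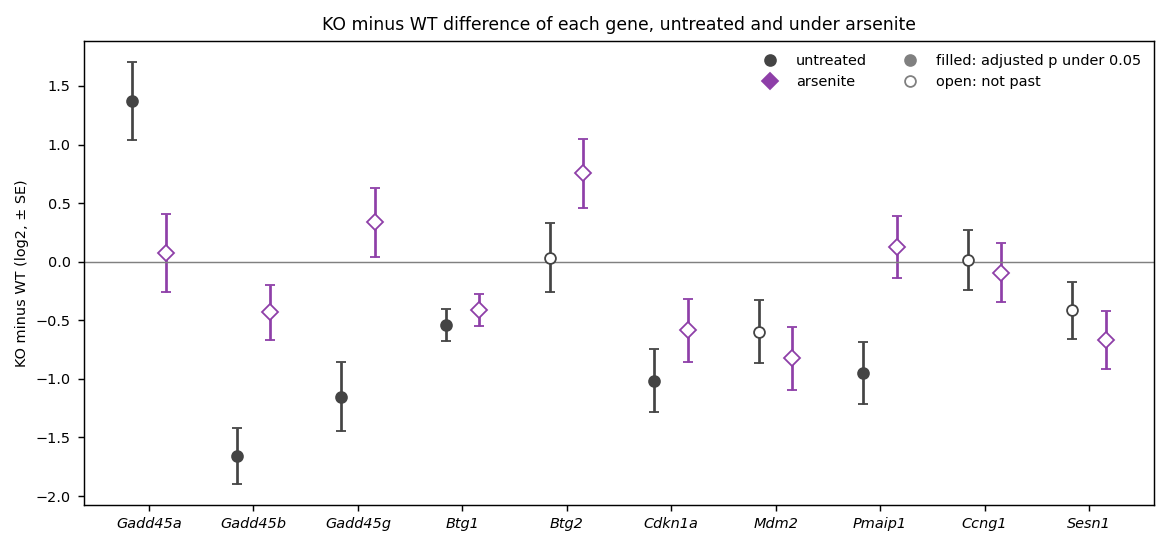
KO minus WT log2 difference of each gene with its standard error, untreated (circles) and under arsenite (diamonds). Filled symbols are past an adjusted p of 0.05. The untreated values run from -1.66 for Gadd45b to 1.37 for Gadd45a, and the arsenite values from -0.82 for Mdm2 to 0.75 for Btg2.

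The difference of the arsenite responses, KO minus WT, was tested directly. None of the 10 genes passed, against 0.0241% of all genes above and 0.00964% below 0, and at an unadjusted p under 0.05 there were 3 members above 0 and 1 below it, with 5.88% of all genes under that level. The 3 above were Gadd45g (1.49 ± 0.41, limma adjusted p = 0.437), Gadd45b (1.22 ± 0.33, limma adjusted p = 0.408) and Pmaip1 (1.08 ± 0.37, limma adjusted p = 0.63), and the one below was Gadd45a (-1.30 ± 0.47, limma adjusted p = 0.668). The replicate block also called none (0.0337% and 0.0241% of all genes), nor did any of the 23 probe sets pass (0.0131% and 0.00787% of all probe sets). Their untreated levels differ between the genotypes, which enters each response with the opposite sign. For Pmaip1 the difference of responses was 1.19, 1.07 and 0.97 in experiments 1, 2 and 3, and with the block within each genotype it was the only one of the 10 genes to pass (± 0.15, adjusted p = 0.0402, with 0.154% of all genes above and 0.361% below 0 in that fit). For Gadd45g it was 2.11, 2.14 and 0.21, and for Gadd45b 1.78, 1.33 and 0.56. Gadd45b passed without arsenite KO replicate 3 (1.52, adjusted p = 0.0412). For Btg2 it was 1.56, 1.36 and -0.76, so its sign turned in experiment 3, in which the untreated WT array was lowest. The 95% intervals for Btg1 (-0.29 to 0.55), Cdkn1a (-0.40 to 1.26), Mdm2 (-1.06 to 0.61), Ccng1 (-0.89 to 0.68) and Sesn1 (-1.01 to 0.51) all included 0.

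Relatives of the 10 genes responded unevenly to arsenite. Of all genes, 1.65% rose and 0.477% fell in WT cells and 3.74% and 3.80% in KO cells, or 3.09%, 1.79%, 6.63% and 8.07% with the replicate block. An unadjusted p under 0.05, in either direction, was reached by 12.0% of all genes in WT and 21.2% in KO cells. Of 8 measured family members outside the 10 genes, 2 rose in WT cells: Sesn2, the sestrin induced by ATF4 and p53 (2.88 ± 0.15, limma adjusted p = 1.28e-06), and Tob2, an antiproliferative relative of the BTG proteins (0.79 ± 0.15, limma adjusted p = 0.0201). In KO cells both rose again (2.15 and 0.72), and 2 fell, among them the cyclin G relative Ccng2 (-0.89 ± 0.24, limma adjusted p = 0.0464). With the block 3 rose in WT cells, and 3 rose and 3 fell in KO cells. The median of these relatives was -0.19 in WT and -0.23 in KO cells. Of 30 other p53 targets, 3 rose in WT cells and none fell (4 and 0 with the block), namely the secreted stress factor Gdf15 (3.15 ± 0.35) and the polo-like kinases Plk3 (2.38 ± 0.22) and Plk2 (1.61 ± 0.28), with limma adjusted p = 0.000518, 0.000167 and 0.00987. In KO cells 6 rose and 1 fell (7 and 4 with the replicate block), and the largest were again Gdf15 (2.38), Plk3 (2.38) and Plk2 (2.09). The median of these targets was -0.02 in WT and -0.13 in KO cells, near that of all genes. None of 12 regulators of p53 passed in either genotype by limma, with 2 above 0 in WT cells and 1 above and 2 below 0 in KO cells at an unadjusted p under 0.05, and with the replicate block 1 rose and 2 fell in KO cells. None of 14 measured genes linked to p21, which are cyclins, CDKs and partners such as Rb1, passed in either genotype. At an unadjusted p under 0.05 there were 0 in WT and 2 in KO cells, and 1 fell in KO cells with the block. Of 8 kinases downstream of GADD45, none passed in WT cells, with or without the block, and 2 were above 0 at an unadjusted p under 0.05. In KO cells the p38-activating kinase Map2k3 (0.99 ± 0.17) and the JNK-activating kinase Map2k4 (0.38 ± 0.10) rose (limma adjusted p = 0.00561 and 0.0316), as 2 did with the block. Btg3 and Cdk4 were not measured by a probe set of their own here.

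**Figure D5:**
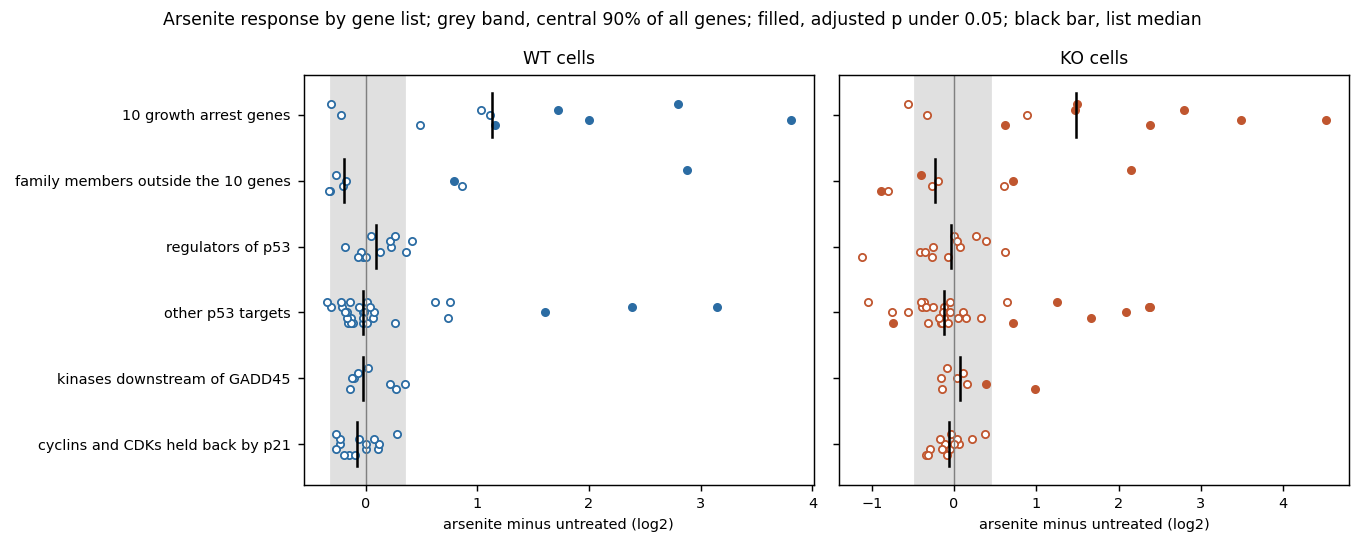
Arsenite minus untreated log2 difference of each gene in the 10 growth arrest genes and 5 related lists, in WT and KO cells. The list labelled as held back by p21 is the p21-linked list of the text and includes Rb1. Filled points are past an adjusted p of 0.05, the black bar is the list's median and the grey band runs from the 5th to the 95th percentile of all genes (-0.31 to 0.35 in WT, -0.48 to 0.45 in KO). The medians of the 10 genes, 1.13 and 1.48, lie to the right of the band, and those of the other lists lie within it.

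Between untreated KO and WT cells the related lists held genes called in both directions, as did all genes, of which 9.83% were higher and 10.3% lower in KO cells (14.3% and 14.9% with the replicate block). Among 12 regulators of p53, 2 were higher and 1 lower in KO cells. Cdkn2a, whose products include ARF, which holds MDM2 away from p53, was 8.27-fold lower (-3.05 ± 0.47, limma adjusted p = 0.000746). This value is that of the gene's brightest probe set, and which of its products that probe set reads was not checked. Trp53bp1 (0.58) and Cop1 (0.44) were higher. Among the 8 family members 3 were higher and 1 lower: the CDK inhibitor Cdkn1b (1.29 ± 0.20) and Ccng2 (1.27 ± 0.24) were among the higher ones, and the CDK inhibitor Cdkn1c was 4.63-fold lower (-2.21 ± 0.20, limma adjusted p = 1.62e-05). With the block 3 were higher and 2 lower. Of 30 other p53 targets 3 were higher and 2 lower (5 and 4 with the replicate block), shares near those of all genes, with Ercc5 at 0.77, Phlda3 at 0.76 and Epha2 at -1.30. Of the 14 genes of the p21-linked list 1 was higher and 3 were lower (1 and 5 with the block), the lower ones being Cdk2 (-1.01), Ccnd3 (-0.67) and E2f1 (-0.66). Of the 8 GADD45-linked kinases 2 were higher and 2 lower, among them Map2k6 (0.93), Map2k3 (-0.84) and Mapk8 (0.69). List medians lay between -0.19 and 0.09. Under arsenite Cdkn2a (-3.12 ± 0.47), Cdkn1c (-2.23 ± 0.20) and Cdk2 (-0.90 ± 0.14) were again lower in KO cells. Sesn2 was 1.73-fold lower (-0.79 ± 0.15, limma adjusted p = 0.00279). Also called lower were Polk (-1.03), Rrm2b (-0.99), Ccne2 (-0.98), E2f1 (-0.53) and Usp7 (-0.51). Cdkn1b (1.23), Map2k6 (0.88), Phlda3 (0.81), Trp53bp1 (0.59) and Mapk8 (0.50) were higher. Counts higher and lower were 2 and 2 for the family, 2 and 2 for regulators and 1 and 5 for other targets. They were 2 and 0 for kinases and 0 and 4 for the p21-linked list. With the replicate block these counts were 3 and 5, 2 and 3, 2 and 7, 3 and 0, and 1 and 6. Of all genes 10.3% were higher and 10.8% lower, or 15.1% and 15.0% with the block. In the difference of responses no gene of the 5 lists passed by limma, with or without the block. Each list had at most 1 gene above and 2 below 0 at an unadjusted p under 0.05, and 5.88% of all genes lay under that level.

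The genes whose pattern over the 12 arrays was most like that of a member were found by the root mean square difference, with each gene taken relative to its own untreated WT mean, among 14228 genes above the dim level on average. For Btg2 they were the AP-1 gene Junb (0.30) and Zfp36, which encodes an mRNA decay factor (0.38), against a median of 3.0 over all those genes. For Pmaip1 they were Ifrd1 (0.30) and Plk2 (0.36), against a median of 1.43. For Gadd45b they were Zswim6 (0.34) and Itprip (0.40), and for Cdkn1a the circadian repressor Nr1d1 (0.34) and the corepressor Tle4 (0.36), against medians of 1.16 and 0.89. For Gadd45a they were the NF-kB cofactor Nfkbiz (0.60) and Arid5a (0.70), against a median of 2.16. The measure grows with the size of a member's changes, as the medians show, so it is not compared between members. In untreated KO cells Nfkbiz stood 1.01 above its WT level, as Gadd45a stood 1.37 above its own. These likenesses are descriptions over arrays that share 4 conditions.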

How the data were processed

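RNA of 12 arrays was measured, and the arrays were grouped by the codes of the full table, whose deposited mean columns equalled the means of these arrays within 1e-06. The deposited values are log2 signals after RMA, per the submitters' processing notes, which give no version. The authors' p-values and differences for 3 comparisons stand in the same deposited table and were not used for calls, and the sources used here do not name the test behind them. Of 45101 probe sets, 64 controls, 5654 without a symbol and 1253 with several genes were left out. Symbols were looked up by Entrez identifier for 35046 matched probe sets (RefSeq, GRCm38.p6), and those of 2094 changed. Each gene was represented by its brightest probe set on average, giving 20753 genes, and every probe set was fitted separately as well.

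The 4 groups were fitted to all 12 arrays with limma 3.58.1 in R 4.3.3 (8 residual degrees of freedom), with two-sided moderated tests, Benjamini-Hochberg adjustment within each of 5 comparisons and a threshold of 0.05. The number of arrays limits the precision. Replicate numbers pair the arrays, as the design text gives each experiment all 4 conditions. Deviations from group means correlated at 0.231 to 0.738 across genes in 18 pairs with the same number. In 36 pairs with different numbers they correlated at -0.575 to -0.0106. The 3 deviations of a gene in a group sum to 0, so the second range follows in part from the first. The fit with the replicate block has 6 residual degrees of freedom. It is given where it changes a call of the 10 genes, or a count of their probe sets or of a related list. A block within each genotype (4 residual degrees of freedom) was added after the data had been seen.

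The members, the related lists and the rule for naming genes (in each list and comparison up to 3 past the threshold with the largest changes, and the 2 most alike genes for 5 members) were chosen with earlier results of these data known. Other alternatives were quantile normalisation again, median centring, a filter on genes dim in all groups, the mean over a gene's probe sets, dropping probe sets marked as open to cross-hybridisation, only the compared groups, trended robust variances, the labels of the shorter table (26382 probe sets) and leaving out each array.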

Additional observations from a re-analysis of the deposited data

How the results depend on the processing

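With the arrays grouped by the labels of the shorter table, which mix the genotypes and treatments of the full table, 0 of the 10 genes passed in the WT arsenite, KO arsenite and untreated KO minus WT comparisons. In that grouping 18 signs turned, with log2 values of -0.14 for Mdm2 (arsenite in WT), -0.0907 for Btg1 and 0.41 for Ccng1 (arsenite in KO), 0.0248 for Btg1, -0.0838 for Btg2 and -0.48 for Ccng1 (untreated KO minus WT), -0.69 for Gadd45g, -0.45 for Btg2, 0.14 for Cdkn1a, 0.14 for Mdm2 and 0.46 for Ccng1 (arsenite KO minus WT), and 0.19 for Gadd45a, -0.47 for Gadd45b, -0.48 for Gadd45g, -0.25 for Btg1, -0.37 for Btg2, 0.54 for Mdm2 and 0.94 for Ccng1 (difference of responses). The mean over probe sets turned the Btg1 difference of responses to -0.0401.

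The replicate block, which pairs arrays of one experiment, changed the count under arsenite KO minus WT from 0 to 3, and the counts of probe sets to 11 (arsenite in WT), 17 (arsenite in KO), 13 (untreated KO minus WT) and 8 (arsenite KO minus WT). It turned no sign. The block within each genotype gave 8 genes for arsenite in WT and 1 for the difference of responses. The count of 0 under arsenite KO minus WT became 1 with median centring, with trended robust variances and with only the compared groups, and 2 without dim genes and with the mean over probe sets. The mean over probe sets also lost Gadd45b in WT (adjusted p = 0.0593) and Btg1 in KO cells (adjusted p = 0.323). With only the compared groups Gadd45a (0.0761) and Btg1 (0.127) no longer passed for arsenite in KO cells, while Btg1 (0.0295) and Mdm2 (0.00475) also passed for arsenite in WT cells, 7 genes in all, as did Mdm2 (0.0451) for untreated KO minus WT, again 7. Repeated quantile normalisation and dropping probe sets open to cross-hybridisation changed no call of the 10 genes. The share of all genes called is given above only for the main fit and the block fits. Counts in the other settings, and those without single arrays, stand without such a share and are not read as results about the 10 genes.

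Leaving out each array in turn gave 4 to 6 genes for arsenite in WT, 5 to 7 for arsenite in KO, 1 to 6 for untreated KO minus WT, 0 to 2 for arsenite KO minus WT and 0 to 1 for the difference of responses. Signs turned only for values that did not pass. These were untreated KO minus WT of Btg2 (-0.33 to 0.27) and Ccng1 (-0.19 to 0.20), arsenite KO minus WT of Gadd45a (-0.0735 to 0.32), Pmaip1 (-0.0932 to 0.46) and Ccng1 (-0.30 to 0.0932), and the difference of responses of Mdm2 (-0.54 to 0.0926), Ccng1 (-0.32 to 0.10) and Sesn1 (-0.44 to 0.0115). With 3 arrays a group, the Btg1 change in WT cells (0.48 ± 0.14) lay at the edge of what these fits call. In the fit to all 12 arrays without a block, the larger WT changes of Mdm2 (1.11 ± 0.27) and Cdkn1a (1.04 ± 0.27) did not pass. With the block within each genotype, added after the data had been seen, their standard errors were 0.13 and 0.08 and both passed (limma adjusted p = 0.0017 and 0.000299).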
